A study of Saccharomyces cerevisiae with 8 samples.

Results

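The 8 genes described here encode the enzymes of upper glycolysis in budding yeast, from the phosphorylation of glucose to the interconversion of the triose phosphates. They were chosen by gene symbol, as HXK1, HXK2, GLK1, PGI1, PFK1, PFK2, FBA1 and TPI1, and all 8 were found among the 6002 nuclear protein-coding open reading frames (ORFs) of the R64 annotation. RNA polymerase II (RNAPII) was immunoprecipitated with an antibody to its largest subunit from cultures of W303 strains grown at 30 °C in synthetic complete medium, and the recovered DNA was sequenced (ChIP-seq). The strain of interest, Tfg1-K60,61R-HA, produces Tfg1 with an HA tag and with arginine in place of lysines 60 and 61, which lowers its modification by SUMO, a small protein that is joined to others. Tfg1 is the larger of the main subunits of TFIIF, a general transcription factor that works with RNAPII at promoters. Its reference, Tfg1-HA, carries the same tag on Tfg1 of normal sequence. The Tfg1-K60,61R-HA strain also holds an unintended missense substitution elsewhere in Tfg1, so the effects of that substitution and of the lysine changes cannot be told apart. For each strain there were 2 immunoprecipitated libraries, each with a list of peaks called against input chromatin, and the comparisons below are between these 4 lists.

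Glycolysis begins with the transfer of a phosphate to glucose, which any of 3 enzymes can carry out in yeast. Hxk2 is the main hexokinase during growth on glucose and also takes part in glucose repression, whereas HXK1 and the glucokinase gene GLK1 are known as genes repressed by glucose and induced when it runs out. Phosphoglucose isomerase (Pgi1) makes fructose 6-phosphate, phosphofructokinase (an enzyme of Pfk1 and Pfk2 subunits) commits it to the pathway, aldolase (Fba1) splits the product, and triose phosphate isomerase (Tpi1) interconverts the resulting trioses. In growing yeast the genes of this pathway are among those transcribed most, largely through the activators Gcr1 and Rap1.

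The lists held 1098 and 894 peaks for Tfg1-K60,61R-HA, against 1257 and 1171 for Tfg1-HA, and the peaks touched between 1384 and 2109 ORFs per list. The lists hold no reads or read counts, and the methods give only a nominal depth, so the depth reached by each library is unknown and RNAPII density was not measured. A peak marks where enrichment passed the threshold of the caller, and in chromatin pooled from a culture fewer cells with RNAPII on a gene and less RNAPII per cell cannot be told apart. The methods describe the 2 libraries of a strain as independent preparations from cultures, without saying whether each came from its own culture, so part of the spread between them may be technical. The genotype of a list rests on its sample label. The names of 2 lists go against it, since the list labelled Tfg1-K60,61R-HA replicate 1 is written in the upper case that yeast genetics uses for a normal allele and the list labelled Tfg1-HA replicate 2 in the lower case of a mutant one. The labels were kept, and the files cannot settle the point. Some results that rest on these 2 lists are given without them too, and others, among them most values of peak width, are not. All tests between the strains are two-sided exact permutation tests of 2 lists against 2, which cannot give a p-value below 0.333.

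Each upper glycolysis gene was occupied by RNAPII in each list. An ORF counted as occupied from 50% of its length under peaks, and 8 of 8 met this in each of the 4 lists. Among all 6002 ORFs the occupied share was 16.9% and 12.7% for Tfg1-K60,61R-HA, against 19.9% and 17.3% for Tfg1-HA, and 10.8% were occupied in all 4. Of the 8, 7 were under peaks over 100% of their length in all 4 lists, as were 465 ORFs or 7.75% of the total. The exception was GLK1, which was covered to 100% and 100% for Tfg1-K60,61R-HA, against 100% and 70.5% for Tfg1-HA. Coverage of the genes therefore did not separate the strains. In the 7 genes at the ceiling of 100% in all lists, it cannot show a difference in RNAPII level above the threshold of the caller. Over the 2386 ORFs touched in any list no coverage difference had an adjusted p below 0.05 (0%) by the permutation test with Benjamini-Hochberg adjustment, and 0 had an unadjusted one, which the design does not allow.

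The genes are short to medium in length, from 747 bp (TPI1) to 2964 bp (PFK1) with a median of 1482 bp, against 1200 bp for all ORFs, and each is a single coding exon. Their GC content ranged from 41.6% to 49.6%, with GLK1 at the top, against a median of 39.7% for all ORFs. HXK1 and HXK2 arose from 1 ancestral gene and are alike enough that reads could in principle be confused. They were identical in 77.5% of aligned coding positions, and the longest run they share is 23 bp. The stretch from coding base 207 to 309 is shown from R64, HXK1 at chrVI:254741-254843 on the minus strand and HXK2 at chrVII:24141-24243 on the plus strand, with the 17 differing bases in capitals.
HXK1: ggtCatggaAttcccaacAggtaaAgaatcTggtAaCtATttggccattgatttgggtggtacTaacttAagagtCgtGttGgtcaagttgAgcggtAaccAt
HXK2: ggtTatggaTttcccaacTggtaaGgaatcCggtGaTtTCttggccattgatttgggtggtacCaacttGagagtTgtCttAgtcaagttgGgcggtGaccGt
PFK1 and PFK2 were identical in 58.8% of positions with a longest shared run of 25 bp, and GLK1 and its paralogue EMI2 in 68.4% with a run of 15 bp. In all 8 genes every word of 50 bases occurs once in the R64 genome, so peaks over the paralogues can be told apart by reads of that length or more.

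The deposited fold of a peak is the mean enrichment over input along the peak. The fold of an ORF was averaged over its peaks in proportion to their overlap with it. It is given as its percentile among the touched ORFs of the list, since the lists are not scaled to each other. The lists touched 1829 and 1384 ORFs for Tfg1-K60,61R-HA, against 2109 and 1868 for Tfg1-HA. A percentile therefore also depends on how many ORFs its list touched, and the part of this in the differences below was not tested. By mean percentile in a strain the genes ranged from near the middle of the touched ORFs to their top. The lowest value in a single list was 31.7, for HXK1 in Tfg1-HA replicate 2. The order of mean percentiles for Tfg1-K60,61R-HA was FBA1 at 98.5, TPI1 at 96.4, HXK1 at 86.1, PGI1 at 80.4, HXK2 at 76.5, GLK1 at 75.1, PFK1 at 58.7 and PFK2 at 55.7. For Tfg1-HA it was TPI1 at 99.0, FBA1 at 96.4, PGI1 at 81.6, HXK2 at 73.2, PFK2 at 68.5, PFK1 at 66.2, GLK1 at 55.5 and HXK1 at 51.3. HXK1 was thus the third in the Tfg1-K60,61R-HA order and the last in the Tfg1-HA order. Neighbours in the Tfg1-K60,61R-HA order overlapped between lists at HXK1 and PGI1, HXK2 and GLK1, GLK1 and PFK1, and PFK1 and PFK2. In the Tfg1-HA order the neighbours from PFK2 down to HXK1 overlapped, while the nearest values of HXK2 and PFK2 were both 70.9.

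**Figure D1:**
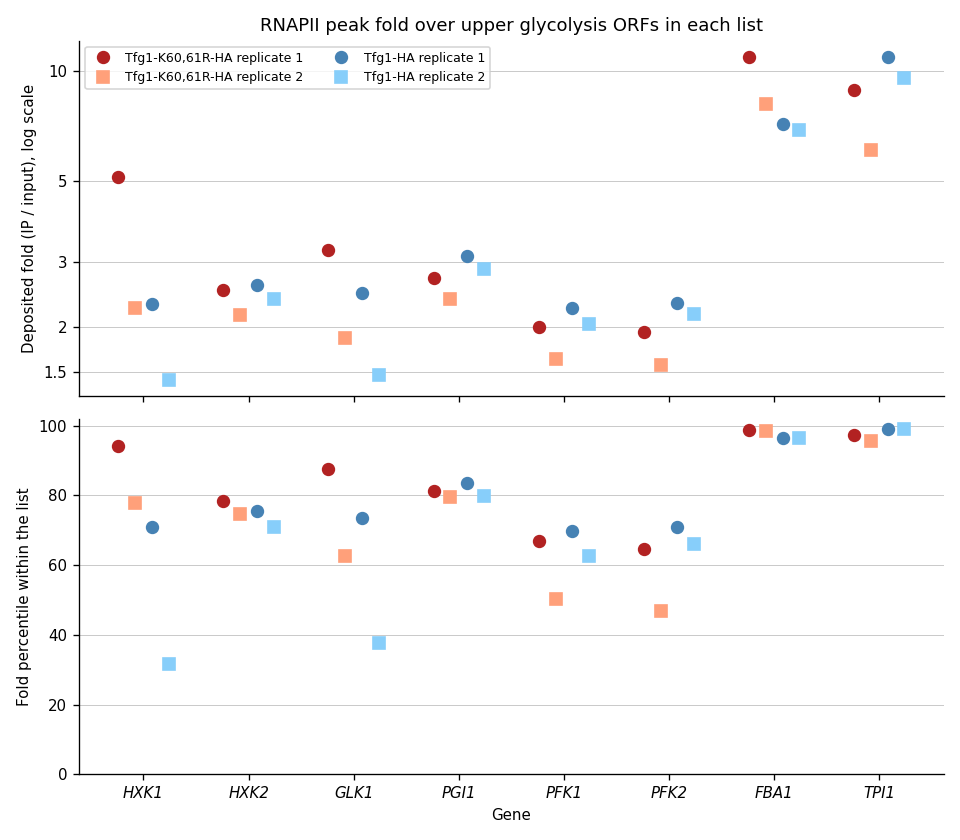
Deposited fold over input (upper panel, log axis) and fold percentile within the list (lower panel) of the 8 genes, with 1 point for each list. HXK1 and GLK1 are spread most over the lists, at percentiles from 31.7 to 94.3 and from 37.5 to 87.6, whereas PGI1 stays between 79.6 and 83.5.

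As background, of the 1202 ORFs touched by peaks in all 4 lists, 43.9% had a lower fold percentile in both lists of Tfg1-K60,61R-HA than in both lists of Tfg1-HA and 9.65% a higher one. Of the 8 genes, 2 were lower in this way (PFK2 and TPI1) and 2 were higher (HXK1 and FBA1), and in the other 4 the strains overlapped. The median difference, Tfg1-K60,61R-HA minus Tfg1-HA, was 0.46 points over the 8 genes and -4.21 points over the 1202 ORFs. Both lists of Tfg1-K60,61R-HA touched fewer ORFs than both lists of Tfg1-HA, and the part of this in these values was not tested. No difference passed a test, and the smallest adjusted p over the 1202 ORFs was 0.622 by the permutation test.

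HXK1 (YFR053C, chrVI:253592-255049, minus strand) had the largest difference of the 8. Its peak had a fold of 5.12 in Tfg1-K60,61R-HA replicate 1 and 2.25 in replicate 2, against 2.31 and 1.43 for Tfg1-HA. As percentiles these were 94.3 and 77.9 in Tfg1-K60,61R-HA, against 70.8 and 31.7 in Tfg1-HA, so the strains did not overlap in rank although they did in fold. The difference was 34.8 points, with means of 86.1 ± 11.6 in Tfg1-K60,61R-HA and 51.3 ± 27.6 in Tfg1-HA (SD, n = 2 each; exact permutation p = 0.333, adjusted p = 0.622). It exceeded both SDs, and 0.582% of the 1202 ORFs had a higher one. The highest and the lowest value both came from the lists whose names go against their labels, and without these 2 lists the difference was 7.1 points, from 1 list against 1. The difference without Tfg1-HA replicate 2 was 15.3 points and without Tfg1-HA replicate 1 it was 54.4 points. The HXK1 peak also ran over the convergent gene RPN12, which encodes a subunit of the proteasome lid, so the fold is an average over both genes. It covered 57.7% and 46.4% of RPN12 for Tfg1-K60,61R-HA, against 100% and 84.2% for Tfg1-HA, and in Tfg1-HA replicate 1 it reached RET2, a coatomer subunit gene, over 35.8% of that ORF. Its span was 2427 and 2270 bp for Tfg1-K60,61R-HA, against 3986 and 2467 bp for Tfg1-HA. The strain with the shorter peaks thus had the higher fold percentiles, and the part of peak width in the difference was not tested.

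GLK1 (YCL040W, chrIII:50838-52340, plus strand) resembled HXK1 in its spread over the lists but did not separate the strains. Its fold was 3.23 and 1.86 for Tfg1-K60,61R-HA, against 2.46 and 1.47 for Tfg1-HA. The percentiles were 87.6 and 62.6 in Tfg1-K60,61R-HA, against 73.5 and 37.5 in Tfg1-HA, a difference of 19.6 points with overlapping strains (exact permutation p = 0.667). The same 2 lists as for HXK1 held the highest and the lowest value, and without them the difference was -10.9 points. With 1 list left out in turn it ranged from 1.59 to 37.6 points. GLK1 lies beside the divergent gene PDI1, which encodes protein disulfide isomerase, with 616 bp between their coding sequences. In 3 lists 1 peak of 4338 to 4533 bp ran through PDI1, the promoters and GLK1 into the 3′ neighbour GID7, a gene of the ubiquitin ligase that degrades gluconeogenic enzymes. In Tfg1-HA replicate 2 the signal was divided into a PDI1 peak and a GLK1 peak of 1412 bp, with 1065 bp between them that included the promoters of both and the first 444 bp of the GLK1 ORF. The edge of that peak is shown with the bases under it in capitals (R64, chrIII:51252-51312, coding bases 415 to 475).
GLK1: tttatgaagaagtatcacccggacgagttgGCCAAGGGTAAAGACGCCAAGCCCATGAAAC
The −log10 q-value of the GLK1 peak was 174 and 14.9 for Tfg1-K60,61R-HA, against 44.4 and 6.07 for Tfg1-HA. The 6.07 and the 5.55 of the HXK1 peak, both from Tfg1-HA replicate 2, were the lowest values of any peak on the 8 genes.

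HXK2 (YGL253W, chrVII:23935-25395, plus strand), the glucose-phase hexokinase gene, was by contrast nearly the same in all lists. Its fold was 2.52 and 2.15 for Tfg1-K60,61R-HA, against 2.60 and 2.38 for Tfg1-HA, and its percentiles were 78.5 and 74.6, against 75.5 and 70.9 (difference 3.32 points, exact permutation p = 0.667). Within a list the 3 genes of glucose phosphorylation were compared by a two-sided exact sign-flip permutation test, which with 4 lists cannot give a p-value below 1 in 8, adjusted over the 3 pairs. HXK2 minus HXK1 was -15.8 and -3.25 points for Tfg1-K60,61R-HA, against 4.74 and 39.2 points for Tfg1-HA. HXK1 therefore ranked above HXK2 in both lists of Tfg1-K60,61R-HA and below it in both lists of Tfg1-HA, with a mean over lists of 6.23 ± 23.6 (SD, n = 4; exact permutation p = 0.75, adjusted p = 0.75) and a difference between strains of -31.5 points (exact permutation p = 0.333). In the 2 lists of undisputed genotype the values were -3.25 for Tfg1-K60,61R-HA and 4.74 for Tfg1-HA. HXK1 minus GLK1 was 6.62 and 15.3 points in Tfg1-K60,61R-HA, against -2.73 and -5.78 points in Tfg1-HA, with a mean of 3.36 ± 9.56 (SD, n = 4; exact permutation p = 0.625, adjusted p = 0.75). HXK2 minus GLK1 was -9.19 and 12.1 points in Tfg1-K60,61R-HA, against 2.02 and 33.4 points in Tfg1-HA, and the strains overlapped (mean 9.58 ± 18.1, SD, n = 4; exact permutation p = 0.375, adjusted p = 0.75). In coverage HXK1 and HXK2 did not differ in any list, and both exceeded GLK1 by 29.5 points in Tfg1-HA replicate 2 and by 0 in the other 3.

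**Figure D2:**
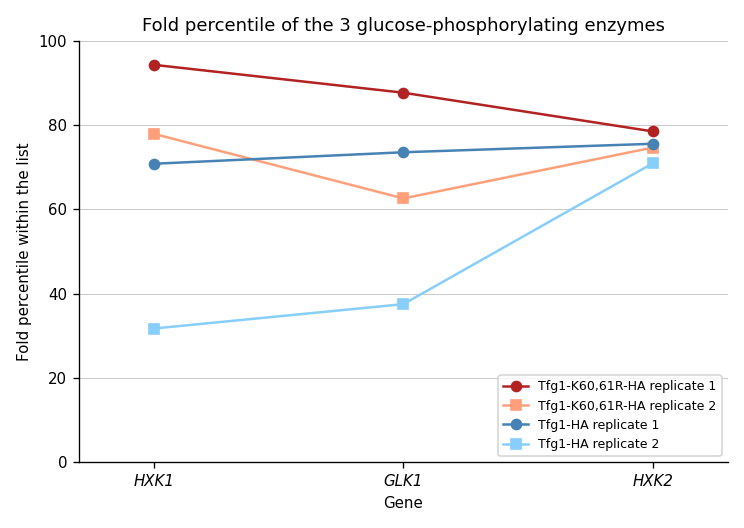
Fold percentile within the list of HXK1, GLK1 and HXK2, with a line for each list. The lists lie within 7.53 points of each other at HXK2 and 62.5 and 50.1 points apart at HXK1 and GLK1.

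By fold percentile over the 4 lists, a likeness measure added after the values were seen, the ORF nearest to HXK1 was RPN12, which lies under the same peak, followed by HXT7, a high-affinity hexose transporter gene, with a mean absolute difference of 7.49 points. HXT7 was at 93.1 and 89.1 for Tfg1-K60,61R-HA, against 67.2 and 45.8 for Tfg1-HA. In Tfg1-HA replicate 2 only 14.5% of the HXT7 ORF was under peaks, so it was not occupied there, whereas HXK1 was fully covered. The search for words found once in the genome covered only the upper glycolysis genes, so whether reads can be assigned to HXT7 alone was not tested. The nearest to GLK1 were GID7 and PDI1 of the same peak and ECT1, at 80.3 and 66.2 in Tfg1-K60,61R-HA, against 73.8 and 47.6 in Tfg1-HA. The nearest to HXK2 after RTG2 of the same peak were the adjoining genes THO1 and VHR2, each with a mean absolute difference of 2.01 points. By coverage along the ORF, in 10 equal parts over the 4 lists, HXK1 and HXK2 were tied with 464 other ORFs covered in full. GLK1 was nearest to ABF2, STF2 and GPG1, which were fully covered in replicate 1 of both strains and covered to 66.8%, 79.2% and 78.0% in Tfg1-HA replicate 2.

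PFK1 (YGR240C, chrVII:970771-973734, minus strand) and PFK2 (YMR205C, chrXIII:671887-674766, minus strand), the subunit genes of phosphofructokinase, had the lowest folds of the 8 in both lists of Tfg1-K60,61R-HA. PFK1 had folds of 1.99 and 1.63 for Tfg1-K60,61R-HA, against 2.25 and 2.04 for Tfg1-HA. PFK2 had 1.93 and 1.57 in Tfg1-K60,61R-HA, against 2.32 and 2.17 in Tfg1-HA. In both genes each Tfg1-K60,61R-HA value was below each Tfg1-HA value (exact permutation p = 0.333 each). As percentiles PFK2 was at 64.5 and 46.8 in Tfg1-K60,61R-HA, against 70.9 and 66.1 in Tfg1-HA, a difference of -12.8 points (exact permutation p = 0.333, adjusted p = 0.622), while PFK1 overlapped, at 67.0 and 50.3 in Tfg1-K60,61R-HA, against 69.7 and 62.6 in Tfg1-HA (difference -7.49 points, exact permutation p = 0.667). The differences with Tfg1-K60,61R-HA replicate 2 left out were -3.96 points for PFK2 and 0.85 points for PFK1, and with Tfg1-K60,61R-HA replicate 1 left out they were -21.7 and -15.8 points. The 2 lists of undisputed genotype alone gave -24.1 points for PFK2 and -19.4 points for PFK1. A lower rank in both lists of Tfg1-K60,61R-HA was common in these data (43.9% of ORFs), and 23.3% of the 1202 ORFs had a lower difference than PFK2. When only peaks with a fold of at least 2 were used, PFK1 and PFK2 were unoccupied in both lists of Tfg1-K60,61R-HA and fully covered in both lists of Tfg1-HA. That pattern was shared by 1.82% of the 6002 ORFs, and by 23% of the 474 that were occupied in both lists of Tfg1-HA at this limit. The opposite pattern held for none of the 8 genes and for 0.0333% of ORFs. By that criterion 6 and 5 of the 8 genes were occupied for Tfg1-K60,61R-HA (7.15% and 4.78% of ORFs), against 8 and 6 for Tfg1-HA (9.58% and 8.33% of ORFs), and the genes lost elsewhere were GLK1 in Tfg1-K60,61R-HA replicate 2 and HXK1 and GLK1 in Tfg1-HA replicate 2. PFK1 lay just under that limit in Tfg1-K60,61R-HA replicate 1, at 1.99, and just above it in Tfg1-HA replicate 2, at 2.04. The PFK2 peak touched no other ORF in any list, so its fold is not shared with a neighbour.

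FBA1 (YKL060C, chrXI:326408-327487, minus strand) and TPI1 (YDR050C, chrIV:555726-556472, minus strand), which encode the aldolase that makes the triose phosphates and the isomerase that interconverts them, had the highest folds and differed in opposite directions. FBA1 had folds of 10.9 and 8.14 for Tfg1-K60,61R-HA, against 7.14 and 6.89 for Tfg1-HA. TPI1 had 8.90 and 6.08 in Tfg1-K60,61R-HA, against 10.9 and 9.58 in Tfg1-HA. The strains did not overlap in either gene. The percentiles of FBA1 were 98.7 and 98.4 in Tfg1-K60,61R-HA, against 96.3 and 96.4 in Tfg1-HA, a difference of 2.16 points that kept its sign and order in each subset of lists tried (exact permutation p = 0.333, adjusted p = 0.622). Those of TPI1 were 97.3 and 95.5 in Tfg1-K60,61R-HA, against 99.0 and 98.9 in Tfg1-HA, a difference of -2.56 points (exact permutation p = 0.333, adjusted p = 0.622). The TPI1 difference likewise kept its sign and order in each subset of lists tried. Both were at the 95th percentile or above in all 4 lists, as were 4.66% of the 1202 ORFs. The FBA1 peak was shared with MSN4, a stress-response activator gene, with BLI1 and, in 3 lists, with MPE1, a gene of the pre-mRNA cleavage and polyadenylation factor. It spanned 5231 and 3698 bp for Tfg1-K60,61R-HA, against 5959 and 5714 bp for Tfg1-HA, so here too the shorter peaks had the higher fold, and the part of width in it was not tested. TPI1 had a peak of its own in 3 lists, of 1509 and 1374 bp in Tfg1-K60,61R-HA and 1436 bp in Tfg1-HA replicate 2, and in Tfg1-HA replicate 1 a peak of 1942 bp that reached DET1. The spans of TPI1 overlapped between the strains. From the 2 lists of undisputed genotype alone, 1 against 1, the differences were 2.03 points for FBA1 and -3.52 points for TPI1.

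PGI1 (YBR196C, chrII:612236-613900, minus strand) varied little in rank, by 3.97 points over the 4 lists. Its percentiles were 81.2 and 79.6 for Tfg1-K60,61R-HA, against 83.5 and 79.8 for Tfg1-HA (difference -1.24 points, exact permutation p = 0.667), while its folds of 2.72 and 2.38 in Tfg1-K60,61R-HA lay below the 3.12 and 2.87 of Tfg1-HA. Its peak included the small ORFs YBR196C-A and YBR196C-B in all lists. In Tfg1-K60,61R-HA replicate 2 it ended 930 bp before the start codon, against 3388 bp in replicate 1 and 3305 and 3116 bp for Tfg1-HA, where it went on over YBR197C into TAF5, which encodes a subunit of TFIID and SAGA.

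Because list scaling cancels in the ratio of a pair of genes from the same list, folds were also divided within lists, with pairs chosen after the values were seen, and the ratios are given as a description with no test. TPI1 over FBA1 was 0.816 and 0.747 for Tfg1-K60,61R-HA, against 1.53 and 1.39 for Tfg1-HA, which restates the opposite differences of the 2 genes given above. The means were 0.781 ± 0.0490 in Tfg1-K60,61R-HA and 1.46 ± 0.0998 in Tfg1-HA (SD, n = 2 each). HXK1 over HXK2 was 2.03 and 1.05 in Tfg1-K60,61R-HA, against 0.890 and 0.601 in Tfg1-HA. PFK1 over PFK2, which encode subunits of the same enzyme, was near 1 throughout, at 1.03 in both lists of Tfg1-K60,61R-HA, against 0.970 and 0.940 for Tfg1-HA. GLK1 over HXK2 overlapped, at 1.28 and 0.863 in Tfg1-K60,61R-HA, against 0.949 and 0.619 in Tfg1-HA.

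**Figure D3:**
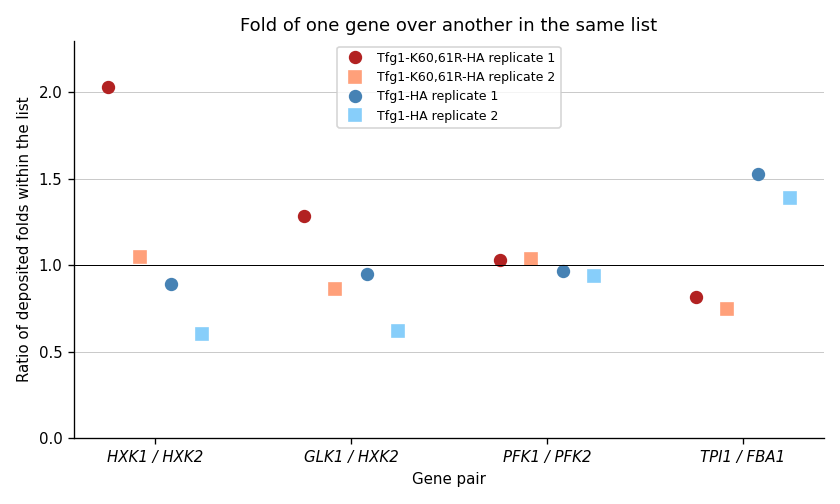
Ratio of deposited folds of 2 genes in the same list, with 1 point for each list and a line at 1. TPI1 over FBA1 lies at 0.816 and 0.747 in Tfg1-K60,61R-HA and at 1.53 and 1.39 in Tfg1-HA, and PFK1 over PFK2 stays between 0.940 and 1.03.

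Where the peaks began and ended along the genes was read from their edges. An edge marks where enrichment passed the threshold of the caller, and does not give the position of RNAPII itself. In 5 of the 7 fully covered genes (HXK2, PGI1, PFK1, PFK2 and TPI1) the edge beyond the stop codon fell within 100 bp over the 4 lists, as it did in 57% of the 465 fully covered ORFs. These edges lay 400 to 558 bp past the stop codon. The edge before the start codon was as stable only in HXK2 and PFK2, against 47.5% of the 465 ORFs. HXK2 and PFK2 were also the genes whose peaks had both edges displaced in the direction of transcription in both lists of Tfg1-K60,61R-HA, which 4.95% of the 465 ORFs showed. The HXK2 peak began 99 and 85 bp before the start codon in Tfg1-K60,61R-HA, against 118 and 126 bp in Tfg1-HA, and ended 494 and 480 bp beyond the stop codon, against 433 and 437 bp. The PFK2 peak began 7 and 16 bp before the start codon in Tfg1-K60,61R-HA, against 80 and 83 bp in Tfg1-HA, and ended 558 and 550 bp beyond the stop codon, against 535 and 539 bp. The strains did not overlap at any of these 4 edges, and each difference was larger than the SDs, which rest on n = 2 each (exact permutation p = 0.333 each). The HXK2 edge beyond the stop codon lay inside the convergent gene RTG2 in all 4 lists. The part of depth, fold and neighbouring genes in these differences was not tested. A start-side edge nearer to the start codon in both lists of Tfg1-K60,61R-HA was common, in 64.9% of the 465 ORFs and in 4 of the 7 genes (HXK2, PFK2, FBA1 and TPI1), while 0 of the 7 and 3.01% of the ORFs had it further away. A stop-side edge further out was not, in 10.5% of the ORFs and in 2 of the 7 genes. Of the other genes, HXK1 and FBA1 had their stop-side edge nearer to the gene in both lists of Tfg1-K60,61R-HA (30.8% of ORFs). It lay 738 and 645 bp beyond the HXK1 stop codon in Tfg1-K60,61R-HA, against 2332 and 957 bp in Tfg1-HA. For FBA1 it lay 2883 and 2413 bp beyond in Tfg1-K60,61R-HA, against 3263 and 3220 bp in Tfg1-HA, within or past the neighbouring MSN4.

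**Figure D4:**
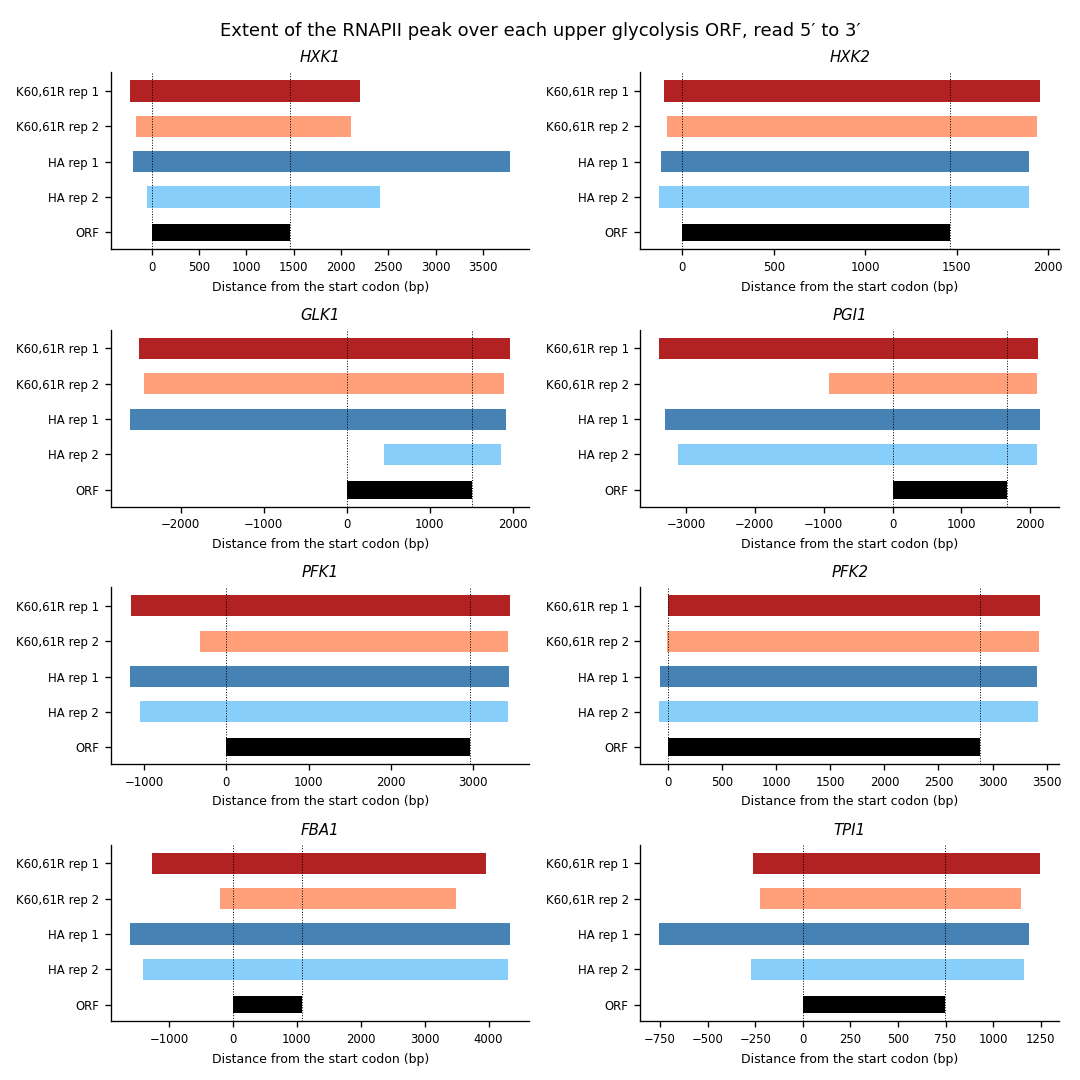
Extent of the peak over each of the 8 ORFs in each list, as distance from the start codon in bp in the direction of transcription, with the ORF as a black bar and dotted lines at its ends. Peaks of HXK2 and PFK2 have nearly the same length in all lists, and the GLK1 peak of Tfg1-HA replicate 2 starts 444 bp inside the ORF.

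Peak span summed up these edges. It was lower in both lists of Tfg1-K60,61R-HA for HXK1, PFK2 and FBA1, or 3 of the 8 genes against 52.8% of the 1202 ORFs, and higher for HXK2 alone, against 2.41%. The HXK2 span was 2054 and 2026 bp in Tfg1-K60,61R-HA, against 2012 and 2024 bp in Tfg1-HA, so the difference of 22 bp rests on an interval of 2 bp between the nearest lists. That of PFK2 was 3445 and 3446 bp in Tfg1-K60,61R-HA, against 3495 and 3502 bp in Tfg1-HA (difference -53 bp, exact permutation p = 0.333, adjusted p = 0.603 over the 1202 ORFs). Coverage of the first 10% of the ORF minus that of the last 10% was 0 in all genes and lists but GLK1 in Tfg1-HA replicate 2, where it was -100 points. No gene had this value lower or higher in both lists of a strain, against 9.93% of the 2386 touched ORFs that were lower in Tfg1-K60,61R-HA and 5.53% that were higher. In a fully covered gene the value can only be 0, so these shares, which include partly covered ORFs, say nothing about such genes.

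The promoters were read from R64 as the 250 bp before the start codon and searched on both strands. CTTCC, the core of the site of Gcr1, was found in 4 of the 8 (HXK1, GLK1, PFK2 and FBA1), against 39.3% of all promoters. TATAAA was found in 6 of the 8, all but HXK1 and PGI1, against 43.4%, with overlapping matches on the opposite strands in PFK1 and PFK2. The Rap1 motif ACCCANACA was found in HXK1 alone, 36 to 28 bp before the start codon, against 1.33% of promoters, and it lay under the HXK1 peak in all 4 lists, whose start-side edges were 231 and 167 bp before the start codon for Tfg1-K60,61R-HA, against 196 and 52 bp for Tfg1-HA. It is shown in capitals within the 50 bp from 60 bp before the start codon (chrVI:255060-255109, minus strand).
HXK1: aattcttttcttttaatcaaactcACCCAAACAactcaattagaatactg
GLK1 alone held CCCCT, the stress response element bound by Msn2 and Msn4 (18.8% of promoters), at 3 places, and a core of the site of the glucose repressor Mig1, searched as CCCCAC or in the form CCCCGC, and also as CCCCAG or in the form CCCCGG (9.58% of promoters). In a window of 500 bp, added after the values were seen, CCCCT was in HXK1, GLK1 and TPI1 (34.1% of promoters), the Mig1 core in HXK1 and GLK1 (22.7%) and CTTCC in all but HXK2 (66.1%). With 3 of 8 genes holding CCCCT and 2 of 8 the Mig1 core, these counts were near the shares of all promoters, and no factor was measured. The promoters of HXK1 and GLK1 are shown because the genes are known to be repressed by glucose. The sequences are the 210 bp that begin 500 bp before the HXK1 start codon (chrVI:255340-255549, minus strand) and the 100 bp that begin 250 bp before that of GLK1 (chrIII:50588-50687, plus strand), with CCCCT and Mig1 core matches in capitals on either strand.
HXK1: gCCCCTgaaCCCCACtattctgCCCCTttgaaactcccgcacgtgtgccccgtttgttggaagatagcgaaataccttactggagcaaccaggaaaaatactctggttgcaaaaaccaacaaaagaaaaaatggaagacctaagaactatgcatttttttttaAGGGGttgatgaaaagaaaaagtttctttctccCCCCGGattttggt
GLK1: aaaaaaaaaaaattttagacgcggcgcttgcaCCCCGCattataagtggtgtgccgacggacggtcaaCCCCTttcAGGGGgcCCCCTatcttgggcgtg
The HXK2 promoter over 160 bp from 250 bp before the start codon (chrVII:23685-23844, plus strand) is set beside them as that of the third glucose-phosphorylating enzyme, with its 2 TATAAA matches in capitals. Its peaks began between 126 and 85 bp before the start codon, within the stretch shown in all lists but Tfg1-K60,61R-HA replicate 2.
HXK2: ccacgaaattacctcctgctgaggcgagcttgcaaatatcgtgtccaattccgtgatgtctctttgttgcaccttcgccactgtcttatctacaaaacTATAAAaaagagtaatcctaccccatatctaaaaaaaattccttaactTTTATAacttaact
The TPI1 promoter over 80 bp from 420 bp before the start codon (chrIV:556813-556892, minus strand), where the Gcr1 core was found outside the shorter window, is shown with its CTTCC matches in capitals.
TPI1: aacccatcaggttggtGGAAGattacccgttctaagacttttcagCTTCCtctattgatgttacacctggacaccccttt

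The 8 genes of lower glycolysis, from glyceraldehyde 3-phosphate dehydrogenase to pyruvate kinase, were fully covered in all 4 lists (7.75% of all ORFs). They lay between percentiles 95.8 and 99.9. FBA1 and TPI1 fell within or just under this range, and the other 6 genes of upper glycolysis lay below it in every list. Of the lower genes, 4 (TDH2, GPM1, ENO2 and CDC19) had a lower percentile in both lists of Tfg1-K60,61R-HA than in both lists of Tfg1-HA. A higher one was found in 1 (TDH3). The shares over the 1202 ORFs touched in all 4 lists were 43.9% lower and 9.65% higher, so these counts were near the background. Of 10 minor isozymes and branch enzymes, 4 and 3 were occupied for Tfg1-K60,61R-HA (16.9% and 12.7% of all ORFs), against 3 and 0 for Tfg1-HA (19.9% and 17.3%). EMI2, the paralogue of GLK1, was covered to 90.4% in Tfg1-K60,61R-HA replicate 1 and to 0% in the other lists. GPD1, which draws triose phosphate into glycerol, and TPS1, which draws glucose 6-phosphate into trehalose, were fully covered in 3 lists, and in Tfg1-HA replicate 2 covered to 0% and 6.65%. This was the list with the lowest values of HXK1 and GLK1. Of 8 regulators, GCR1 and TYE7, both activators of glycolytic genes, were fully covered in all 4 lists, and the other 6, among them RAP1, MIG1 and SNF1, were occupied in none. GCR1 was at percentiles 53.2 and 45.8 in Tfg1-K60,61R-HA, against 59.2 and 55.4 in Tfg1-HA. TYE7 likewise had a lower percentile in both lists of Tfg1-K60,61R-HA, a pattern shared by 43.9% of the 1202 ORFs.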

How the data were processed

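RNAPII ChIP-seq was examined in 2 Tfg1-K60,61R-HA and 2 Tfg1-HA libraries. Per the labels and methods, the authors trimmed reads with TrimGalore, aligned them with Bowtie2 2.3.5.1 to sacCer3 and called broad peaks with MACS2 2.2.7.1 in each library against input, without pooling. Input libraries have no list of their own here. Each deposited list gives peak limits, a score, the fold enrichment over input (a ratio) and −log10 p- and q-values. The smallest −log10 q-value per list lay between 1.05 and 1.10. For Tfg1-K60,61R-HA replicate 1 there were 1992 rows, and 894 of them, identical to those of Tfg1-K60,61R-HA replicate 2, were removed. The lists hold no reads or counts, and the methods give only a nominal depth, so the study's test on reads could not be run.

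ORFs, promoters and sequences came from RefSeq R64, the build of sacCer3 (strain S288C, whereas the libraries come from W303). Coverage, spans, edges and percentiles were computed with Python 3.11.15 and numpy 2.4.6, identities with Biopython 1.88, and the computation was tested on simulated lists. The genes and lists were chosen with earlier results of these data known. Genes named are the 8, those sharing a peak with them, the pathway lists, and the 3 ORFs nearest to each hexokinase gene in coverage. HXT7, ECT1, THO1 and VHR2 were named after their values were seen. Alternatives were peaks with a fold of at least 2 or a −log10 q-value of at least 2, the repeated rows kept, lists left out, a replicate block, other limits of occupancy, folds not ranked and ends of 100 bp.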

Additional observations from a re-analysis of the deposited data

How the results depend on the processing

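Of 402 alternative values, 373 kept their direction or stayed within the replicate spread, 11 moved and 18 reversed, and none of the differences had passed a threshold. The 373 include many values that could hardly change. Coverage and first-minus-last values of fully covered genes stayed at 0 under most settings, and a replicate block leaves a mean as it was. The tally is therefore no measure of how stable the spans and percentiles were. Peaks with a fold of at least 2 changed most. The difference in occupied genes, Tfg1-K60,61R-HA minus Tfg1-HA, became -1.5 (0.5 with occupancy set at 80%). The differences in mean became -18.8 points for coverage, -1297 bp for span and 12.7 points for fold percentile. HXK2 minus HXK1 became 25 points in coverage. The mean percentile was taken over genes that still had a peak, so the 12.7 points compare different genes in the 2 strains. It left out PFK1 and PFK2 in both lists of Tfg1-K60,61R-HA and GLK1 in its replicate 2. In Tfg1-HA replicate 2 it left out HXK1 and GLK1. Peaks with a fold of at least 2 also reversed the fold percentile of HXK2 (-5.54 points) and the spans of HXK1 (355.5 bp) and GLK1 (-29.5 bp). In percentile they reversed HXK2 minus HXK1 (-15.8 points, from 3 lists) and HXK2 minus GLK1 (-11.5 points, from 2 lists). A list in which HXK1 or GLK1 had no peak at this limit dropped out of these contrasts, and a missing peak counted as a span of 0. The 2 contrasts are therefore not over the same 4 lists as before. Unranked folds reversed HXK2 (-0.15) and HXK2 minus HXK1 (-0.37). Without the 2 lists of disputed genotype, the difference in mean span was -1007 bp, against -316 bp with all lists. That in mean percentile was -6.71 points, against 4.47 points with all lists, a change of sign. The percentiles of HXK2 (-0.89) and GLK1 (-10.9) and the span of GLK1 (-195 bp) also reversed. The cause was not tested.

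With 1 list left out in turn, mean percentile ranged from -1.49 to 10.4 points, mean span from -674.6 to 42.1 bp, HXK2 minus HXK1 from -4.77 to 13.6 points, HXK2 minus GLK1 from 1.63 to 15.8 points and HXK1 minus GLK1 from -0.63 to 6.40 points. For single genes the fold percentile ranged from -3.12 to 0.63 points for PGI1 and from -15.8 to 0.85 points for PFK1, and the span from -127 to 2994 bp for GLK1, from -2309 to 166.5 bp for PGI1, from -794.5 to 66.5 bp for PFK1 and from -500.5 to 5.5 bp for TPI1. The strains share replicate numbers, and deviations of same-numbered lists correlated at 0.25 in fold percentile over 1202 ORFs and 0.12 in coverage over 2386. With only 2 pairs the numbers do not establish a pairing, and a replicate block gave the same means (HXK1 34.8 points) with a smallest possible p of 0.5. The lists do not give depth, so a gene under the caller's threshold cannot be told from one without RNAPII.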
